A study of Mus musculus with 4 samples.

Results

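C3, Serping1, C1ra, C1s1, Saa3, Vcam1, Icam1 and Tnfaip2 were taken by name from the count table of cardiac fibroblasts with and without Nr4a3 knockdown. The set holds 4 complement genes, 1 acute phase gene, 2 adhesion receptors and 1 gene named for its induction by tumour necrosis factor (TNF). All 8 were listed among the 13192 genes of the table, and all 8 were among the 13160 genes tested. The rows were taken by name and not by a cut on their values. The names were proposed with earlier results of the same libraries known, which may have shaped the choice.

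RNA was sequenced from primary cardiac fibroblasts of neonatal wild-type (WT) mouse hearts at day 7 of treatment. In the shNr4a3 group (n = 2) the cells carried a short hairpin RNA against Nr4a3, a nuclear receptor of the NR4A family, and in the shNT group (n = 2) the hairpin carried the label shNT. All 4 libraries are labelled WT, so the groups differ in the hairpin and not in an allele, and all 4 titles carry a tag P3 that the labels do not explain. How many hairpins were used, and whether the libraries of a group came from separate cultures, is not stated in the labels. The p-values below set the difference between groups against the spread between these libraries, estimated with all tested genes. That spread may therefore be technical. The study's question was what lies behind the effect of Nr4a3 knockdown on the conversion of fibroblasts to induced cardiomyocytes.

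Complement is a set of plasma protease cascades, the classical, lectin and alternative pathways, that converge on the cleavage of C3. The classical pathway starts when C1r and C1s are activated on the C1 complex. C1 inhibitor, the product of Serping1, blocks C1r and C1s. Acute phase proteins such as serum amyloid A rise in inflammation under interleukin-6, interleukin-1 and TNF, largely through STAT3, C/EBP and NF-kB factors. VCAM-1 and ICAM-1 are cell surface receptors of the immunoglobulin family that bind leukocyte integrins. Stromal fibroblasts express all of these groups, and several belong to the secretory and surface changes described in inflamed or senescent fibroblasts.

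Library totals were 34246969 and 34813598 counts in shNr4a3 and 34068241 and 35111013 counts in shNT. Levels below are counts scaled to a common library size with edgeR's TMM factors (normalised CPM), in which the floor of 3 counts corresponds to between 0.0827 and 0.092 normalised CPM. Nr4a3 itself had 4 and 8 counts in shNr4a3, against 60 and 29 counts in shNT, a log2 fold change of -2.98 ± 0.67 (SE; edgeR adjusted p = 3.22e-04). The knockdown was thus visible in both libraries, on low counts.

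Between the groups, 5 of the 8 genes fell and 1 rose. Serping1, Saa3, Vcam1, Icam1 and Tnfaip2 were lower in shNr4a3 and C1ra was higher, while C1s1 and C3 did not pass edgeR's quasi-likelihood test at an adjusted p of 0.05. The same test called 27.9% of all tested genes lower and 27.6% higher, 55.5% in all. Both shNr4a3 libraries lay below both shNT libraries for 5 of the 8 genes, beside 38.3% of all tested genes, and above them for 2 of the 8, beside 38.9%. The median log2 fold change of the 8 genes was -0.58, beside 0.0044 over all tested genes. In bulk RNA, fewer cells that express a gene and less RNA per cell cannot be told apart.

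**Figure D1:**
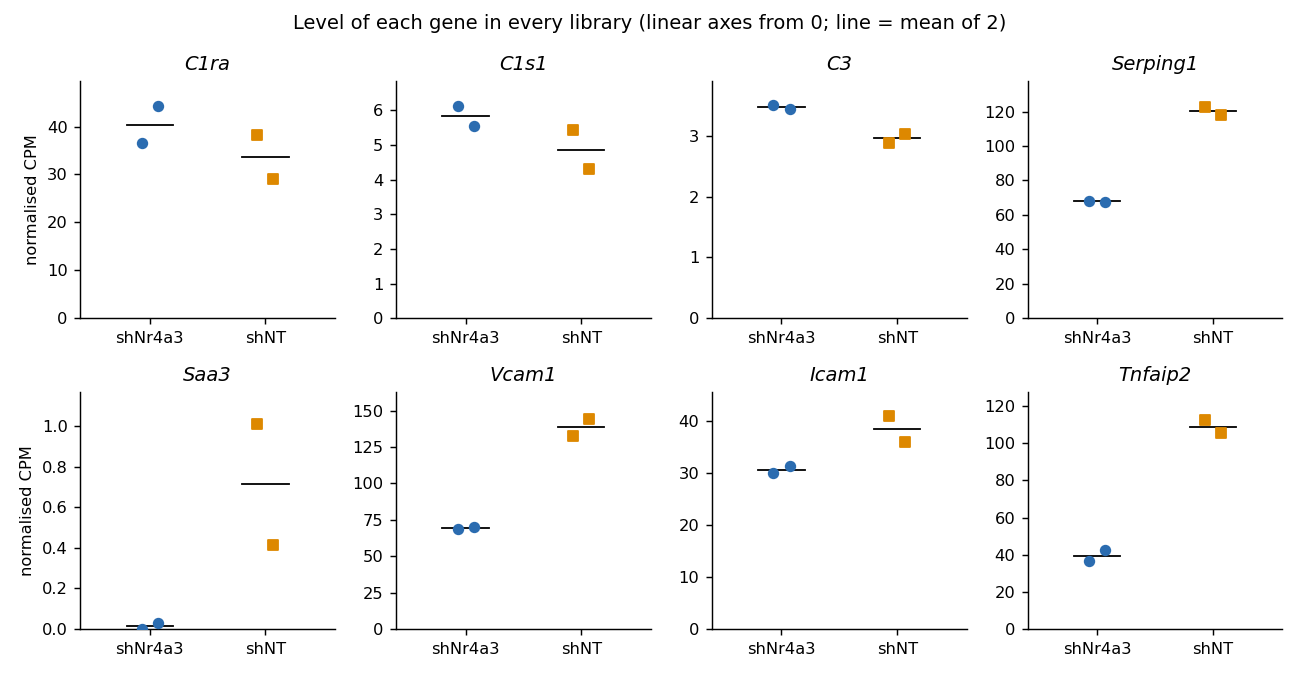
Normalised CPM of the 8 genes in each library, on linear axes that start at 0, with shNr4a3 as circles on the left, shNT as squares on the right and a line at the mean of 2 libraries. The groups are separated for every gene but C1ra, whose shNr4a3 value of 36.6 lies under the higher shNT value of 38.3.

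C1ra encodes the mouse C1r protease, which cleaves C1s when C1 binds its target. It had 1301 and 1605 counts in shNr4a3 and 1250 and 988 counts in shNT, or 36.6 and 44.2 normalised CPM in shNr4a3 and 38.3 and 29.1 normalised CPM in shNT. The lower shNr4a3 library lay below the higher shNT library, so the groups overlapped. Mean levels were 40.4 ± 5.41 normalised CPM in shNr4a3 and 33.7 ± 6.51 in shNT (SD, n = 2 each). The log2 fold change was 0.26 ± 0.11 (SE; edgeR adjusted p = 0.0480), just past the threshold. Without shNT replicate 2 it was 0.079 (edgeR adjusted p = 0.483), and without shNr4a3 replicate 2 it was 0.12 (edgeR adjusted p = 0.504), so the call rests on those libraries.

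C1s1 encodes C1s, the protease that cleaves C4 and C2. It had 218 and 201 counts in shNr4a3, against 177 and 146 counts in shNT. Both shNr4a3 libraries, at 6.13 and 5.54 normalised CPM, stood above both shNT libraries, at 5.43 and 4.30. The log2 fold change of 0.26 ± 0.21 (SE) equalled that of C1ra to 2 decimals, with a wider error at the lower count, and did not pass (edgeR adjusted p = 0.297).

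C1ra and C1s1 each have a near copy on chromosome 6, C1rb and C1s2, in the order C1ra, C1s1, C1rb, C1s2. The C1ra gene spans chr6:124512405-124523443 on the plus strand and C1s1 spans chr6:124530345-124542359 on the minus strand (GRCm38, GENCODE M21). The coding sequences of C1ra and C1rb were identical at 98.2% of 2117 aligned bases, with 1 identical run of 757 bases. Of the 100-base windows of the C1ra transcript, 994 of 2882 also occurred in C1rb, against 225 of 2847 windows of C1s1 in C1s2. Reads from such windows may have been counted for either copy or left out, so the values of each copy are uncertain. The stretches below are those where 60 aligned coding bases differ most; capitals mark the 11 bases that differ in each pair. C1ra starts at coding base 1798, C1rb at 1795, and C1s1 and C1s2 at 1500, counted from the start codon.
C1ra: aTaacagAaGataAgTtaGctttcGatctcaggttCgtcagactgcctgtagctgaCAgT
C1rb: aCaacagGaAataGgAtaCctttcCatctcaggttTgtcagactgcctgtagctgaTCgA
C1s1: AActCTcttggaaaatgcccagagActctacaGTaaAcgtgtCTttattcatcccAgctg
C1s2: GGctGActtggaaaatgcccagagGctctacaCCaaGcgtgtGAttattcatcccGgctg

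C1rb had 145 and 167 counts in shNr4a3, against 96 and 100 counts in shNT. Its log2 fold change was 0.56 ± 0.25 (SE; edgeR adjusted p = 0.0547), with both shNr4a3 libraries above both shNT libraries. C1s2 had 52 and 28 counts in shNr4a3 and 46 and 38 in shNT, which overlapped. With the counts of each pair summed, a choice made after the values were seen, C1ra with C1rb had a log2 fold change of 0.29 (edgeR adjusted p = 0.0229) and C1s1 with C1s2 one of 0.18 (edgeR adjusted p = 0.444). Any shared reads that the counting left out would be missing from these sums as well.

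C3 is the central protein of the cascade, cleaved to C3a and C3b. It was expressed at a low level, with 125 counts in each shNr4a3 library and 94 and 103 counts in the shNT libraries. The normalised levels of 3.52 and 3.45 CPM in shNr4a3 stood above those of 2.88 and 3.04 CPM in shNT. The replicates of each group lay closer together than the groups did, but the fold change, 0.23 ± 0.26 (log2, SE), was smaller than its error and did not pass (edgeR adjusted p = 0.469).

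Serping1, whose product inactivates C1r and C1s, fell. It had 2427 and 2452 counts in shNr4a3, against 3994 and 4004 in shNT. Means were 67.9 ± 0.475 normalised CPM in shNr4a3 and 120.3 ± 3.15 in shNT (SD, n = 2 each). Both shNr4a3 libraries lay far below both shNT libraries, with a spread inside each group that was small beside the gap. The log2 fold change was -0.82 ± 0.07 (SE; edgeR adjusted p = 7.96e-12), a level 1.77-fold lower in shNr4a3. Serping1 lies at chr2:84765387-84775444 on the minus strand (GRCm38).

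**Figure D2:**
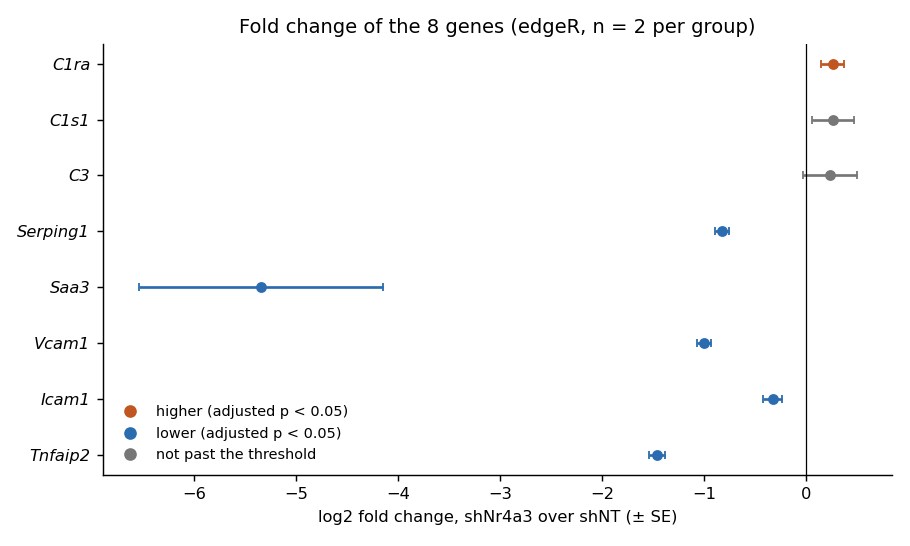
Log2 fold change of the 8 genes, shNr4a3 over shNT, with the standard error from edgeR as bars (n = 2 libraries per group). Values run from -5.35 for Saa3 to 0.26 for C1ra and C1s1, and the bar of C3 crosses 0.

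Beyond these 4 genes, 24 of 47 further complement genes on a list of the pathway were listed and tested. Of these, 3 rose, 7 fell and 14 did not pass, with a median log2 fold change of -0.18. With library totals in place of TMM factors, 5 rose. By role, counting the 4 members, the 5 classical pathway proteases held 1 gene that rose (C1ra) and none that fell. The 10 inhibitors and regulators held 1 that rose and 4 that fell. Over all tested genes, 27.6% were called higher and 27.9% lower, and these shares stand beside the list counts below as well. The call of C1ra was lost under some alternatives, and a difference between the roles was not tested.

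Among the regulators, Clu, which encodes clusterin, fell beside Serping1. It had 1027 and 1020 counts in shNr4a3, against 2282 and 2362 counts in shNT, a log2 fold change of -1.29 ± 0.08 (SE; edgeR adjusted p = 1.55e-14). Cd55, which speeds the decay of convertases, fell with -0.98 ± 0.14 (log2, SE). The regulator gene called in the other direction was Cfi, the protease that cleaves C3b with its cofactors, which rose by 0.80 ± 0.13 (log2, SE; edgeR adjusted p = 4.32e-06). Cr1l, a mouse membrane regulator named here after its values were seen, was not called (0.06 ± 0.07, edgeR adjusted p = 0.507).

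The convertase genes were expressed at low counts and 3 of the 5 genes of that role fell. C2 had 7 and 6 counts in shNr4a3, against 52 and 61 counts in shNT, a log2 fold change of -3.20 ± 0.60 (SE; edgeR adjusted p = 3.20e-05). C4a fell with a log2 fold change of -1.43 ± 0.40, and its near copy C4b, named after its values were seen, at -1.35 ± 0.63, did not pass (edgeR adjusted p = 0.0696); reads shared by these copies make both uncertain. Cfp, which encodes properdin and was named after its values were seen, fell with a log2 fold change of -0.76 ± 0.24 (SE). Without shNT replicate 2 the value for Cfp was -0.58 and did not pass (edgeR adjusted p = 0.0897), which leaves C2 and C4a as the genes of that role called lower. In the lectin pathway the directions were mixed. Masp1, a protease of that pathway, had 2249 and 2368 counts in shNr4a3, against 762 and 680 counts in shNT. That was a rise of 1.57 ± 0.09 (log2, SE; edgeR adjusted p = 1.47e-15), while the scavenger receptor collectin Colec12 fell by 0.91 on the log2 scale.

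Saa3, a serum amyloid A gene that mice express outside the liver, was close to undetected in shNr4a3. It had 0 and 1 counts in shNr4a3, against 33 and 14 counts in shNT. The shNr4a3 libraries were both under the floor of 3 counts, and the shNT libraries differed from each other by more than 2-fold, at 1.01 and 0.413 normalised CPM. Summed over libraries, 1 count in shNr4a3 against 47 in shNT gave a depth-scaled ratio of shNT over shNr4a3 of 50.7, with an exact 95% interval from 8.67 to 2046 that covers counting error only. The edgeR log2 fold change, which depends on the prior count, was -5.35 ± 1.20 (SE; adjusted p = 3.28e-04). Saa3 lies at chr7:46711998-46715700 on the minus strand (GRCm38). Its relatives Saa1 and Saa2 were not listed; the Saa3 coding sequence was 83.5% identical to that of Saa1 and shared no 100-base window with either.

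The promoter windows of Saa3, C3 and Icam1 are shown because the 3 genes differ in outcome, with Saa3 nearly undetected in shNr4a3, C3 not called and Icam1 modestly lower. RefSeq promoter windows (GRCm38.p6) were found for 6 of the 8 genes, all but Serping1 and Vcam1. Motifs were searched in the whole window of 250 bases before the RefSeq start, and bases inside a GENCODE exon are not printed. The printed bases of Saa3 are chr7:46715701-46715926, those of C3 are chr17:57228137-57228386 (both minus strand) and those of Icam1 are chr9:21015690-21015939 (plus strand). Capitals mark matches on either strand, written 5′ to 3′ on the gene's strand.
Saa3: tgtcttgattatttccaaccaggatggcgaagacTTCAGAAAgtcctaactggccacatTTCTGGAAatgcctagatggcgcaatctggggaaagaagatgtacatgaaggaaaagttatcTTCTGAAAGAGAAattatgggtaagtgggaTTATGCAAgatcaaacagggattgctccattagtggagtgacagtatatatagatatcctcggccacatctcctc
C3: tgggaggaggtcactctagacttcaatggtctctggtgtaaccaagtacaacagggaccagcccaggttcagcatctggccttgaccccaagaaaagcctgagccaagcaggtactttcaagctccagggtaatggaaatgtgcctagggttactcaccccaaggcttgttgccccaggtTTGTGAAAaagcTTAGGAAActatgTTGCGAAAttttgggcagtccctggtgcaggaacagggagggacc
Icam1: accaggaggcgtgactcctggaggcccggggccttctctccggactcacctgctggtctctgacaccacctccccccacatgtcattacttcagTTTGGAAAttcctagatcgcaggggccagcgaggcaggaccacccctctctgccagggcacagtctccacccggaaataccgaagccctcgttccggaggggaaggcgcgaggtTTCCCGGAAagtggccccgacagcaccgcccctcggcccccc

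The letters searched were TTNNGNAA for C/EBP, TTCNNNGAA for a STAT site (GAS), GAAANNGAA for an interferon element (ISRE), AAAGGTCA for the NR4A element (NBRE) and the kappaB consensus. C/EBP letters occur in 36.8% of 32851 RefSeq windows, GAS in 7.02%, ISRE in 7.13%, NBRE in 1.34% and kappaB in 7.25%. Saa3 held 4 C/EBP matches, starting at bases -216, -191, -129 and -99 before the RefSeq start, and 1 ISRE match at -125 that overlaps the third of them. C3 held 3 C/EBP matches at -70, -58 and -45. Icam1 held 1 C/EBP match at -156 and 1 GAS match at -42. No NBRE letters were found in any window of the 6 genes. Tnfaip2 held 1 match to the kappaB consensus searched, starting at base -24 before its RefSeq start at chr12:111442661. That match lies in an annotated exon, as GENCODE starts the gene at chr12:111442469, and not upstream of the gene. Only 58 bases of the Tnfaip2 window and 34 bases of the C1ra window lay outside GENCODE exons. For these genes the search, including that for NBRE letters, therefore covered mostly exon sequence. NF-kB-type sites with other letters were not searched for. The matches are letters in a window and were not tested for binding. Saa3 and C3, the windows with the most C/EBP matches, had fold changes of -5.35 ± 1.20 and 0.23 ± 0.26 (log2, SE).

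Most of the other acute phase proteins tested fell. Of 30 on the list, 13 were tested, none rose by edgeR (nor at an unadjusted p under 0.05, nor with DESeq2), 9 fell and 4 did not pass, with a median log2 fold change of -1.12. Ptx3, a long pentraxin made by stromal cells, had 24 and 22 counts in shNr4a3, against 87 and 136 counts in shNT, a log2 fold change of -2.38 ± 0.39 (SE; edgeR adjusted p = 4.44e-06). Serpina3n, a protease inhibitor that mouse cells induce in inflammation, fell with -1.67 ± 0.16 (log2, SE). The metallothionein gene Mt1 had 2149 and 2179 counts in shNr4a3, against 3783 and 4569 counts in shNT, and fell with -1.06 ± 0.07 (log2, SE).

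Of 20 receptors and factors of the acute phase response, 18 were tested, 3 rose, 10 fell and 5 did not pass. Cebpb, which encodes an inflammatory C/EBP factor, had 1079 and 1032 counts in shNr4a3 and 2409 and 2318 counts in shNT, a log2 fold change of -1.27 ± 0.08 (SE; edgeR adjusted p = 3.31e-14). The TNF receptor gene Tnfrsf1b fell with a log2 fold change of -1.23 ± 0.10, the kinase gene Tyk2 with -1.02 ± 0.09 and the interleukin-1 receptor gene Il1r1 with -0.98 ± 0.10 (SE). Chosen after their values were seen, Cebpa and Stat3 fell with -1.84 ± 0.22 and -0.57 ± 0.06, while the cytokine receptors Lifr and Il6ra rose with 0.90 ± 0.09 and 0.53 ± 0.14 (log2, SE). Cebpd, a further C/EBP gene chosen in the same way, rose by 0.24 ± 0.10 (log2, SE; edgeR adjusted p = 0.0381). With DESeq2 the rise of Cebpd did not pass (adjusted p = 0.0914). The direction among these genes was thus mixed.

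Vcam1 encodes the receptor that the integrin of Itga4 and Itgb1 binds. It had 2444 and 2541 counts in shNr4a3, against 4323 and 4895 counts in shNT. Both shNr4a3 libraries, at 68.8 and 70.1 normalised CPM, stood well below the shNT libraries at 132.6 and 144.3. The log2 fold change was -0.996 ± 0.07 (SE; edgeR adjusted p = 8.47e-14), which put the level in shNr4a3 at 50.1% of that in shNT. Vcam1 lies at chr3:116109949-116129688 on the minus strand (GRCm38).

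Icam1 encodes the receptor for the leukocyte integrins that contain the Itgb2 chain. It had 1066 and 1136 counts in shNr4a3 and 1336 and 1219 counts in shNT. The groups did not overlap at 30.0 and 31.3 normalised CPM in shNr4a3 and 41.0 and 35.9 in shNT, but the gap was small beside that of Vcam1. The log2 fold change was -0.33 ± 0.09 (SE; edgeR adjusted p = 0.00389). Without shNr4a3 replicate 1 it was -0.30 (edgeR adjusted p = 0.0645), and with library totals in place of TMM factors -0.21 (edgeR adjusted p = 0.056). Vcam1 fell to 50.1% of the shNT level and Icam1 to 79.7%; that these 2 changes differ was not tested. Icam1 lies at chr9:21015985-21028817 on the plus strand (GRCm38).

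The remaining adhesion genes moved both ways, with 21 of 30 tested, 5 higher, 11 lower and 5 not past the test. Selp, the P-selectin gene of endothelium and platelets, had 154 and 146 counts in shNr4a3, against 669 and 670 counts in shNT (log2 fold change -2.27 ± 0.15, SE). The platelet and endothelial receptor Pecam1 fell with -1.86 ± 0.13 and the cytoskeletal linker Ezr with -1.07 ± 0.06 (log2, SE). Itga4, a chain of the integrin that binds VCAM-1, rose by 0.90 ± 0.05 (log2, SE; edgeR adjusted p = 2.50e-15), in the opposite direction to Vcam1. It had 20590 and 21179 counts in shNr4a3, against 10040 and 10767 counts in shNT. Cd34, Alcam, Jam2 and Jam3, named after their values were seen, were the other adhesion genes that rose, with log2 fold changes from 0.37 to 1.11.

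Tnfaip2 was first described as a TNF-induced gene of human endothelial cells, and its product takes part in membrane tubes between cells. It had 1302 and 1537 counts in shNr4a3, against 3663 and 3582 counts in shNT. Means were 39.5 ± 4.06 normalised CPM in shNr4a3 and 109 ± 4.77 in shNT (SD, n = 2 each). Both shNr4a3 libraries lay below both shNT libraries by much more than the spread within either group. The log2 fold change was -1.46 ± 0.08 (SE; edgeR adjusted p = 2.58e-16), a level 2.76-fold lower in shNr4a3. Tnfaip2 lies at chr12:111442469-111455018 on the plus strand (GRCm38). Annotated genes on the opposite strand overlap Tnfaip2, Vcam1, Icam1 and C1s1, and neither labels nor headers say whether counting used strand, so reads of those partners cannot be told apart.

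Other genes induced by TNF and NF-kB moved both ways. Of 36 on the list, 29 were tested, 13 rose, 9 fell and 7 did not pass, with a median log2 fold change of 0.10. Cx3cl1, a membrane-bound chemokine and adhesion molecule, had 2745 and 2906 counts in shNr4a3, against 905 and 872 counts in shNT (1.56 ± 0.08, log2, SE; edgeR adjusted p = 1.72e-16). Il6 rose by 1.35 ± 0.09, while the chemokine gene Ccl2 fell with -1.34 ± 0.09 and Ier3 with -0.90 ± 0.08 (log2, SE). Among genes of the Tnfaip name, chosen after their values were seen, Tnfaip3 and Tnfaip6 rose with 0.88 ± 0.11 and 1.02 ± 0.20 and Tnfaip8 fell with -1.05 ± 0.16. The shared prefix records how the genes were found, and they are not 1 family.

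Of 25 genes induced by interferon, 23 were tested, 10 rose, 5 fell and 8 did not pass, with a median log2 fold change of 0.45. Without shNr4a3 replicate 2, 2 of them were called lower. The GTPase genes Irgm1 and Gbp3 rose with 1.20 ± 0.06 and 1.40 ± 0.20, and Isg15 with 0.92 ± 0.14 (log2, SE). Gbp2 of the same GTPase group had 976 and 971 counts in shNr4a3, against 386 and 458 counts in shNT, and rose (edgeR adjusted p = 2.24e-09). With all 4 libraries, the 5 genes called lower were Psmb8, Oasl2, Usp18, Irf7 and Stat2, named after their values were seen. Their log2 fold changes ran from -1.34 for Psmb8 to -0.34 for Stat2. The acute phase proteins, with none of 13 tested higher, and the interferon genes, with 10 of 23 tested higher, stand side by side as counts, and no test of their difference was run.

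**Figure D3:**
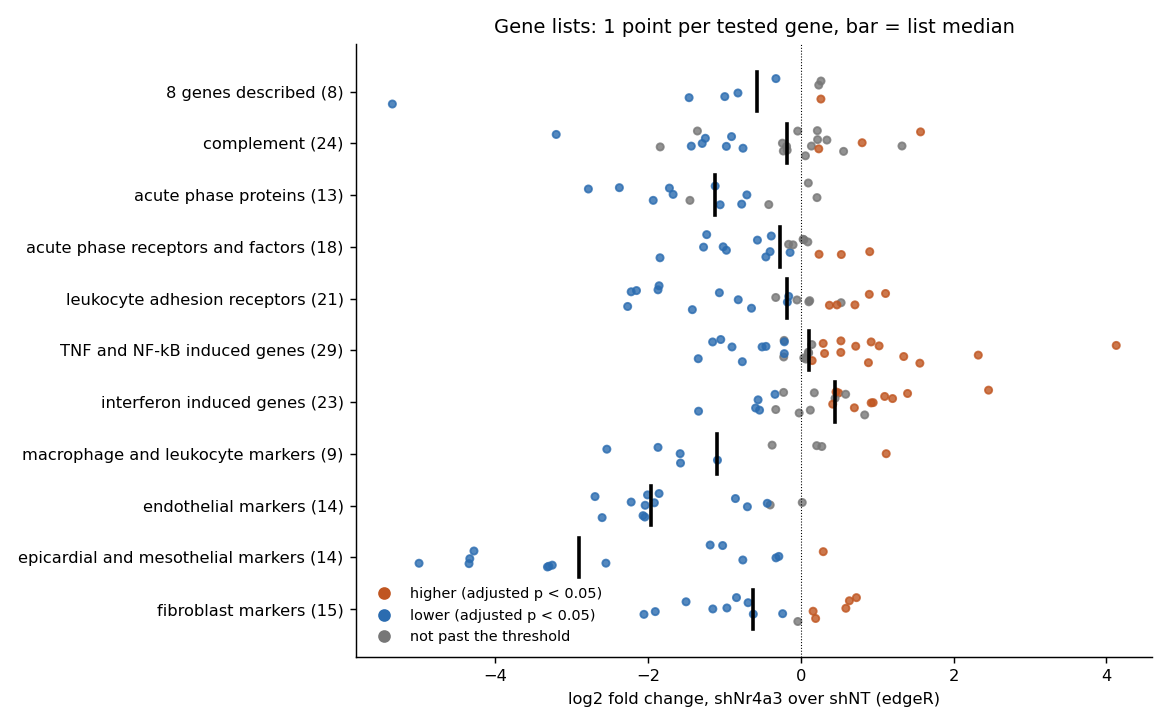
Log2 fold change, shNr4a3 over shNT, of each tested gene in the 8 genes and in 10 lists (number tested in brackets), with a bar at the list median; orange marks genes called higher, blue genes called lower and grey genes that did not pass. Median values run from -2.90 for the epicardial and mesothelial markers to 0.45 for the interferon induced genes.

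Markers of other cell types moved between the groups as well. Of 14 tested endothelial markers, none rose by edgeR (nor at an unadjusted p under 0.05, nor with DESeq2) and 12 fell, with a summed level of 935 and 939 normalised CPM in shNr4a3, against 1556 and 1420 in shNT. This sum was mostly Eng, Ptprb and Flt1, named after their values were seen. Their log2 fold changes were -0.70, -0.44 and 0.02, beside a median of -1.96 for the endothelial list. Of 14 epicardial and mesothelial markers, 1 rose (0 without shNr4a3 replicate 1) and 13 fell, with sums of 292 and 290 normalised CPM in shNr4a3, against 878 and 859 in shNT. The mesothelial marker Msln fell with -4.33 ± 0.08 and the endothelial marker Cdh5 with -2.04 ± 0.09 (log2, SE). The summed level of the fibroblast markers, given next, was mostly Fn1, named after its values were seen. Its log2 fold change was -0.24 ± 0.05 (SE). Fibroblast markers were abundant in all 4 libraries, at 28986 and 28827 normalised CPM in shNr4a3 and 38570 and 34903 in shNT; 5 of 15 rose and 9 fell, and 3 rose without either shNr4a3 replicate 1 or shNr4a3 replicate 2.

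Few leukocyte markers were listed. Of 24 macrophage and leukocyte markers, 10 were listed and 9 tested, and 1 rose and 5 fell; Adgre1, Itgam, Tyrobp and the C1q chain genes were among those not listed, and Ptprc was listed but too low to test. The number called lower was 3 without shNr4a3 replicate 2, 3 with DESeq2 and 2 with a stricter filter on low counts. The sum of 101.7 and 100.4 normalised CPM in shNr4a3, against 63.6 and 64.7 in shNT, was mostly Lyz2, which rose by 1.12 ± 0.08, while Cd68 fell with -1.09 ± 0.22 (log2, SE). Vcam1, Icam1 and Tnfaip2 are also known from endothelium, and Vcam1 from epicardium. The part of these marker changes in the fall of the 5 genes was not tested.

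Per kilobase of the longest coding transcript, Serping1 was the highest of the 8 genes in both groups, at 38.4 normalised CPM per kilobase in shNr4a3 and 68.0 in shNT. Vcam1 came next, at 19.8 and 20.2 in the shNr4a3 libraries and 38.2 and 41.6 in the shNT libraries. C1ra, Icam1 and Tnfaip2 followed in shNr4a3 at 13.6, 12.1 and 12.0 normalised CPM per kilobase, and their libraries overlapped. In shNT these 3 separated, with Tnfaip2 at 33.2, Icam1 at 15.2 and C1ra at 11.3. C1s1 and C3 were low in both groups, at 1.98 and 0.678 in shNr4a3 and 1.65 and 0.576 in shNT. Saa3 was the lowest in shNr4a3 at 0.0248, and in shNT its 1.28 overlapped C1s1. Over the union of annotated exons, which is longer for Vcam1, the order changed, with C1ra second after Serping1 in shNr4a3 and Tnfaip2 second in shNT.

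Genes whose 4 library values were most like those of a member were sought among all tested genes with a mean level of at least 1 (log2 CPM). The measure was the Euclidean distance over 4 libraries between log2 normalised CPM values, with 0.5 CPM added, centred on each gene's mean. Col1a2, a collagen chain, was the second nearest to Serping1 at a distance of 0.03, after Phb2 at 0.0251. Klf3 was nearest to Vcam1 at 0.0326, Speg to Tnfaip2 at 0.0599, Zswim8 to Icam1 at 0.0169 and Tceal9 to C3 at 0.0122. Them6 was nearest to C1ra at 0.022 and P2ry6 to C1s1 at 0.0495. Saa3 had the largest distance to its nearest gene, Cdca3 at 0.175. Cdca3 had a log2 fold change of -1.34, beside -5.35 for Saa3. The added 0.5 CPM shrinks the difference for Saa3, whose means were 0.0138 normalised CPM in shNr4a3 and 0.712 in shNT. With 4 libraries many genes share a pattern, so the likeness is a description.

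In the authors' deposited table, which tests against a log2 fold change of 0.5 and calls a gene only from a log2 fold change of 1, Saa3, Vcam1 and Tnfaip2 carry the call Down. The authors' deposited table leaves Serping1 without a call at a log2 fold change of -0.83 and an adjusted p of 1.37e-04. C1ra, Icam1, C1s1 and C3 have an adjusted p of 1 in the authors' deposited table.

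**Figure D4:**
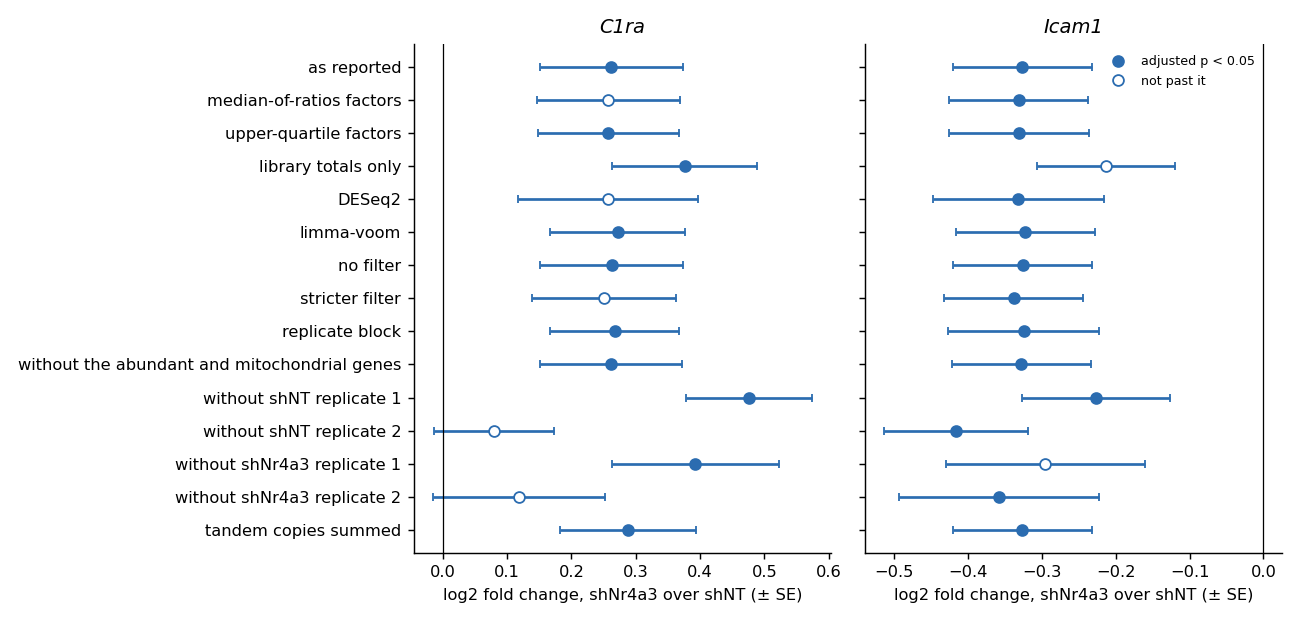
Log2 fold change of C1ra (left) and Icam1 (right), shNr4a3 over shNT with standard errors, as reported and under 14 alternatives; filled points passed an adjusted p of 0.05 and open points did not. C1ra stays above 0 and runs from 0.079 to 0.48, and Icam1 stays below 0 and runs from -0.42 to -0.21.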

How the data were processed

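Gene counts of 4 libraries came from the authors' deposited table, which per the submitters' processing notes was made with Trimmomatic 0.36, SAMtools and featureCounts of Subread 1.5.1 on mm10. Per the labels' protocols, libraries were made with an rRNA depletion kit and a stranded kit and sequenced in paired ends; the labels call the molecule polyA RNA. Which aligner was used, and whether counting used strand, was not given in the sources used here. Beside counts, the deposited table also holds FPKM values, a mean signal (baseMean), log2 fold changes, a standard error and statistic (score) and p-values by the authors. The deposited FPKM values imply whole gene lengths, within 0.01 base, that had a Spearman correlation of -0.00599 with annotated exon lengths over 12705 genes, so no level was taken from them. The deposited p-values follow a normal test against a log2 fold change of 0.5.

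Counts were tested with edgeR 4.0.16 (R 4.3.3; TMM, filterByExpr, robust quasi-likelihood F test, Benjamini-Hochberg at 0.05 over 13160 genes; 32 genes were removed). The SE is the log2 fold change divided by the square root of F. The common biological coefficient of variation was 6.57%. DESeq2 1.42.0 and limma 3.58.1 were alternatives, with other scalings, filters, the replicate block and each library left out.

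The 8 genes and the lists were chosen with earlier results of these data known. The rule for naming genes took from each list the 4 genes with the smallest p (8 for complement), the tandem copies and the 2 nearest patterns of each member; other named genes are said to be chosen after their values were seen. A few genes under this rule are not reported here. Intervals and the floor of 3 counts cover counting error only.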

Additional observations from a re-analysis of the deposited data

How the results depend on the processing

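Of 111 fold changes of the 8 genes under 14 alternatives, 104 kept their direction and their side of the threshold and 7 lost the call; none changed sign. Serping1, Saa3, Vcam1 and Tnfaip2 kept their calls wherever tested; Saa3 was not tested under the stricter filter of 50 counts. C1ra lost its call with median-of-ratios factors (0.26, edgeR adjusted p = 0.0518), DESeq2 (0.26, adjusted p = 0.117) and the stricter filter (0.25, edgeR adjusted p = 0.0574), and then 0 of the 8 genes were called higher; leaving out 1 library each moved C1ra between 0.079 (without shNT replicate 2) and 0.48, Icam1 from -0.42 to -0.23, Saa3 from -7.60 to -4.52 and the number of the 8 genes called higher from 0 to 1. Icam1 lost its call with library totals only (-0.21). Where a library is left out, the lone library of its group is assumed to vary like the other group. The causes were not tested.

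Over all genes, library totals only gave 4702 higher and 2837 lower, 62.4% of calls higher beside 49.7%, and moved the median of all genes by 0.113 (log2). Leaving out 1 library each gave 2665 to 3848 genes higher and 2862 to 3758 lower. C1s2, not called in any alternative, ran from -0.71 to 0.21 (without shNr4a3 replicate 2) when 1 library was left out.

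The replicate numbers are shared by the groups but not stated to pair libraries. Across the 13160 tested genes, the difference of replicate 1 from replicate 2 in shNr4a3 had a correlation of -0.038 with that in shNT. With the replicate block, 3552 genes were higher and 3599 lower, and C1ra had 0.27 (edgeR adjusted p = 0.0163).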
